A study of Canis lupus familiaris with 12 samples.

Results

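The integrin, laminin and collagen genes of dog kidney epithelial cells were followed across 4 genotypes. They were taken by gene symbol: every listed gene whose symbol begins with ITGA, ITGB, LAMA, LAMB, LAMC or COL and then gives a chain, which left out 4 genes named as binding partners of such chains (COL4A3BP, ITGB1BP1, ITGB1BP2 and ITGB3BP). The rule found 44 of the 13672 genes in the table: 10 alpha integrin, 7 beta integrin, 7 laminin and 20 collagen genes. Of the 44, 40 passed the filter of over 1 CPM (counts per 1e+06 reads) in at least 3 libraries and were tested.

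RNASeq was done on MDCKII cells, an established line of dog kidney tubule epithelium. There were 3 libraries each of WT cells, of the CGN-KO line 1G8, of the CGNL1-KO line 22 and of the double-KO line 21D3. The double-KO line is a KO for both CGN and CGNL1. CGN (cingulin) and CGNL1 (paracingulin) are cytoplasmic proteins of epithelial junctions, and the KO lines were made by CRISPR/Cas9. No library had a drug treatment. Each KO genotype is 1 clone, so loss of the gene and other properties of the clone cannot be told apart. No source says that the libraries of a genotype came from separate cultures, so p-values measure the spread between these libraries, which may be technical.

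Integrins are receptors made of 1 alpha and 1 beta chain that hold a cell to its matrix. Laminins are trimers of an alpha, a beta and a gamma chain that form, with the type IV collagen network, the basement membrane on which kidney tubule cells rest. Fibrillar collagens such as type V form or regulate fibrils, and type XVII collagen spans the membrane in hemidesmosomes, where the α6β4 integrin holds laminin. Integrins with the αv chain bind ligands with an RGD motif and, with β6 or β8, activate latent TGF-β, while α1, α2 and α10 bind collagens and α3, α6 and α7 bind laminins when paired with β1.

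The recovered reads per library ranged from 16837532 to 30086076. CGN ranged from 199 to 233 CPM in WT and from 39.7 to 56.5 CPM in the CGN-KO and double-KO libraries, and CGNL1 from 7.74 to 12.3 CPM in WT and from 1.11 to 3.02 CPM in the CGNL1-KO and double-KO libraries. CGNL1 also ranged from 5.04 to 6.92 CPM in CGN-KO. All 7 epithelial markers (CDH1, EPCAM, KRT8, KRT18, KRT19, OCLN and CLDN4) were listed, and their sum ranged from 7314 to 7420 CPM in WT, 7629 to 7730 CPM in CGN-KO, 7723 to 7995 CPM in CGNL1-KO and 7216 to 7367 CPM in double-KO. Of these 7, 2 rose and 2 fell in CGN-KO, 3 rose and 1 fell in CGNL1-KO, and 1 rose and 2 fell in double-KO. All 5 kidney tubule markers (among them PAX8 and CDH16) were listed too, with sums of 306 to 347 CPM in WT, 357 to 409 CPM in CGN-KO, 325 to 384 CPM in CGNL1-KO and 371 to 404 CPM in double-KO, so that CGN-KO and double-KO did not overlap WT. Of these 5, 4 rose and 1 fell in CGN-KO, 0 passed in CGNL1-KO, and 2 rose and 1 fell in double-KO. The shares past an adjusted p of 0.05 were 57.1%, 57.1% and 42.9% of the epithelial markers in CGN-KO, CGNL1-KO and double-KO. They were 100%, 0% and 60% of the kidney tubule markers, beside 19%, 10.3% and 26.3% of all genes tested. The part of these markers in the members' values was not tested. Of 9 fibroblast and mesenchymal markers 3 were listed, of 6 leukocyte markers 1, and of 5 endothelial markers 2. In bulk RNA, fewer cells of a type and less RNA per cell cannot be told apart. Values are given below in the order replicate 1, 2 and 3, and for double-KO in the order unnumbered library, replicate 2 and replicate 3, since 1 of its columns carries no number. CPM values were not divided by transcript length, so levels of different genes are not compared.

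Where values for the 3 lines follow each other, their order is CGN-KO, CGNL1-KO, double-KO. Differences are given as the difference of mean log2(CPM + 1) ± its standard error (SE) from limma, with n = 3 libraries per genotype and with p-values adjusted over all 12650 genes tested. On this scale the change of a low gene is understated. A gene passed the test at an adjusted p below 0.05, and was called where the difference was also at least 2-fold. Across the 4 genotypes, 28 of the 40 members (70.0%) passed the F test, beside 29.9% of all genes tested. Against WT, 20 of 40 members passed in CGN-KO, 15 higher and 5 lower, beside 19% of all genes (11.2% higher and 7.87% lower). In CGNL1-KO 14 passed, 10 higher and 4 lower, beside 10.3% of all genes (6.81% higher and 3.49% lower). In double-KO 19 passed, 15 higher and 4 lower, beside 26.3% of all genes (14.8% higher and 11.5% lower). Without WT replicate 2 the 14 became 9. The median difference of the 40 members was 0.16 for CGN-KO, 0.13 for CGNL1-KO and 0.07 for double-KO, and that of all genes was -0.0039, -0.0031 and -0.00036.

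**Figure D1:**
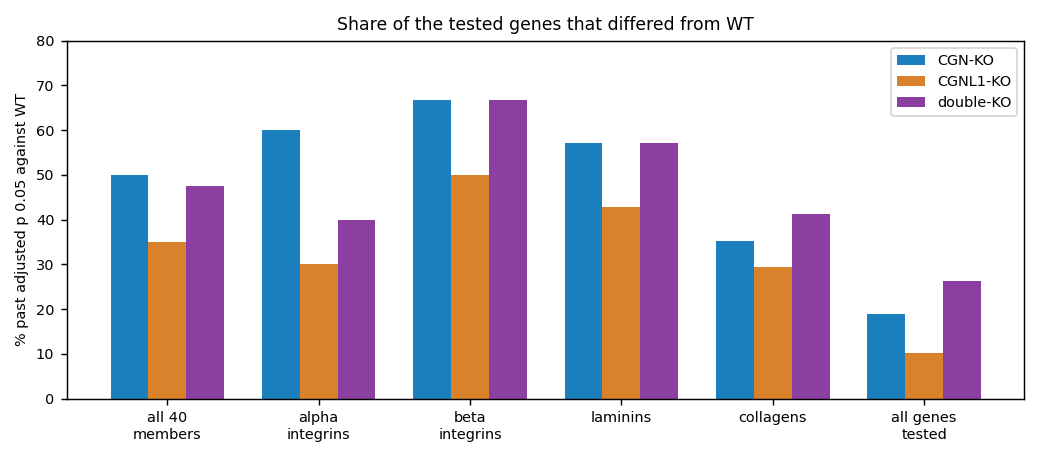
Percentage of tested genes past an adjusted p of 0.05 against WT (vertical axis) for all 40 members, for each class and for all 12650 genes, with 1 bar for each KO line. Over all members the bars stand at 50.0%, 35.0% and 47.5%, and over all genes at 19%, 10.3% and 26.3%.

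Most of these differences were below 2-fold. In CGN-KO limma called 1 member, COL5A3, beside 1.31% of all genes, while edgeR and DESeq2 each called 3 (COL16A1, COL5A1 and COL5A3). In double-KO 1 was called, COL4A1, beside 1.41% of all genes. In CGNL1-KO limma called 0 members, also at an unadjusted p below 0.05, beside 0.617% of all genes, while edgeR and DESeq2 each called 1, COL5A3. The 3 comparisons share the WT libraries. Against them, 6 members were higher in all 3 KO lines (among them COL5A1, COL5A3, ITGB3, ITGB5 and LAMB1) and 2 were lower in all 3 (ITGA2 and ITGB8), beside 501 and 210 of the 12650 genes. Of the others, 9 passed in 2 lines, 11 in 1 line and 12 in none, and no member passed in opposite directions in different lines.

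**Figure D2:**
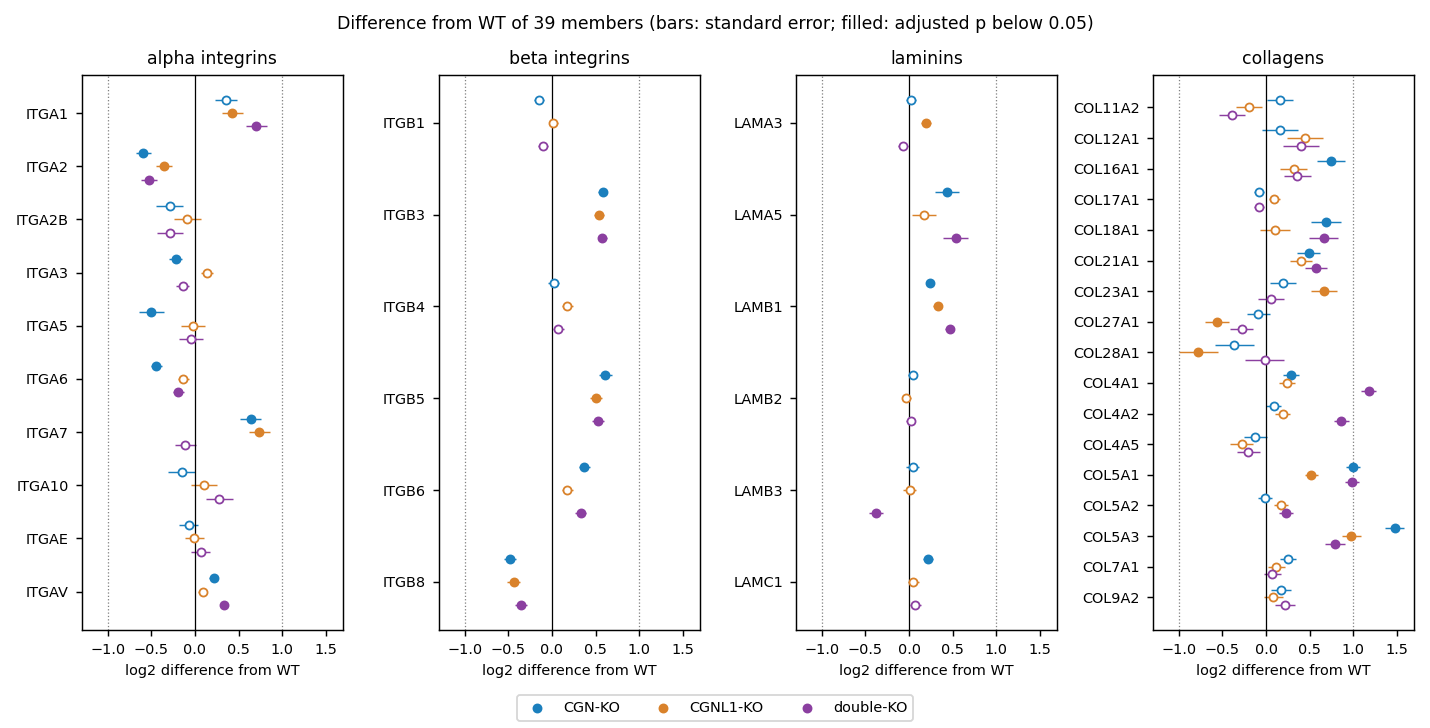
Difference of mean log2(CPM + 1) from WT (horizontal axis) of 39 members, by class, in the 3 KO lines. Points are differences and bars their SE, filled points passed the test, and dotted lines mark 2-fold. COL5A3 in CGN-KO (1.48) and COL4A1 in double-KO (1.18) are the filled points beyond the dotted lines.

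Among the beta integrins, ITGB3 and ITGB5 rose and ITGB8 fell in all 3 KO lines, ITGB6 rose in CGN-KO and double-KO, and ITGB1 and ITGB4 did not pass in any line. ITGB3 stood at 372, 390.4 and 375 CPM in the WT libraries, at 522, 591 and 590.3 CPM in those of CGN-KO, at 558, 539 and 555 CPM in those of CGNL1-KO and at 566, 558 and 575 CPM in those of double-KO. Every KO library lay above every WT library. ITGB3, the β3 chain of the vitronectin receptor, rose by 0.58 ± 0.05 (adjusted p = 1.6e-06) in CGN-KO, 0.54 ± 0.05 (adjusted p = 7.5e-06) in CGNL1-KO and 0.58 ± 0.05 (adjusted p = 1.4e-06) in double-KO. ITGB5 stood at 74.4, 71.5 and 75.9 CPM in the WT libraries, at 123, 108 and 110.2 CPM in those of CGN-KO, at 118, 96.5 and 103 CPM in those of CGNL1-KO and at 107, 108 and 106 CPM in those of double-KO. The KO libraries again lay above all WT libraries. ITGB5, another partner of αv that binds vitronectin, rose by 0.61 ± 0.07 (adjusted p = 1.1e-05), 0.51 ± 0.07 (adjusted p = 0.00014) and 0.53 ± 0.07 (adjusted p = 3.7e-05) in the same order of lines.

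ITGB8 stood at 56.2, 51.9 and 56.1 CPM in the WT libraries, at 41.6, 38.2 and 36.6 CPM in those of CGN-KO, at 43.6, 36.8 and 39.9 CPM in those of CGNL1-KO and at 43.0, 41.7 and 42.9 CPM in those of double-KO. Here every KO library lay below every WT library. ITGB8, whose αvβ8 product binds latent TGF-β, differed by -0.49 ± 0.07 (adjusted p = 0.00012) in CGN-KO, -0.44 ± 0.07 (adjusted p = 0.00052) in CGNL1-KO and -0.35 ± 0.07 (adjusted p = 0.0014) in double-KO. ITGB6 stood at 88.6, 86.3 and 88.8 CPM in the WT libraries, at 111, 113 and 118 CPM in those of CGN-KO, at 109.8, 90.5 and 99.1 CPM in those of CGNL1-KO and at 106, 115 and 111 CPM in those of double-KO. All KO libraries lay above the WT libraries, although those of CGNL1-KO by less. ITGB6, the β6 chain of epithelial αvβ6, rose by 0.37 ± 0.06 (adjusted p = 0.0006) in CGN-KO and 0.33 ± 0.06 (adjusted p = 0.0012) in double-KO, and its difference in CGNL1-KO was 0.18 ± 0.06 (adjusted p = 0.098).

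ITGAV, the αv chain shared by β3, β5, β6 and β8, rose in CGN-KO and double-KO. ITGAV stood at 121, 122 and 117 CPM in the WT libraries, at 140.2, 136 and 141 CPM in those of CGN-KO, at 133, 123 and 127 CPM in those of CGNL1-KO and at 158, 148 and 149 CPM in those of double-KO. Each KO library lay above all WT libraries. The difference was 0.21 ± 0.05 (adjusted p = 0.006) in CGN-KO, 0.09 ± 0.05 (adjusted p = 0.31) in CGNL1-KO and 0.33 ± 0.05 (adjusted p = 0.00011) in double-KO, and double-KO lay above CGNL1-KO by 0.25 ± 0.05 (adjusted p = 0.0032). The ratio of ITGB8 to ITGB5 CPM within a library ranged from 0.726 to 0.755 in WT libraries, 0.332 to 0.355 in CGN-KO libraries, 0.369 to 0.388 in CGNL1-KO libraries and 0.386 to 0.404 in double-KO libraries. The ratio of ITGB3 to ITGAV ranged from 3.08 to 3.21 in WT libraries, 3.73 to 4.36 in CGN-KO libraries, 4.20 to 4.38 in CGNL1-KO libraries and 3.59 to 3.86 in double-KO libraries, and that of ITGB8 to ITGAV from 0.427 to 0.478 in WT libraries, 0.259 to 0.297 in CGN-KO libraries, 0.299 to 0.328 in CGNL1-KO libraries and 0.273 to 0.288 in double-KO libraries. These ratios, and those given below, are of CPM not divided by length, so they show how a pair shifted between genotypes and not how many chains there were of each. The pairs were chosen after their values were seen and were not tested.

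**Figure D3:**
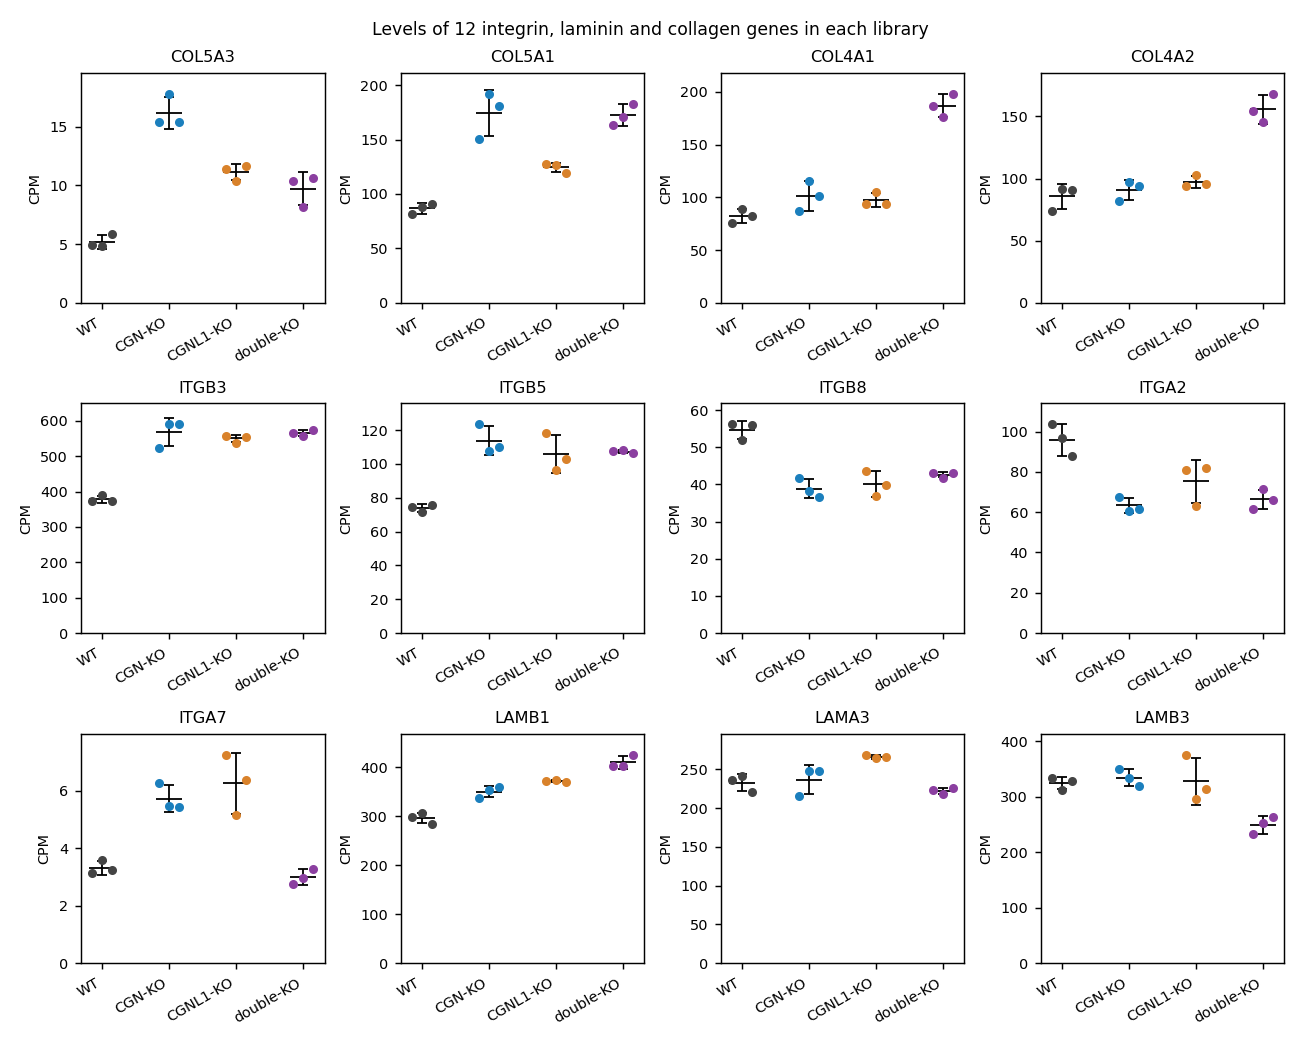
CPM (vertical axis, starting at 0) of 12 members in each of the 12 libraries, by genotype. Points are libraries, the horizontal marks are means and the error bars are SD (n = 3). The KO libraries of ITGB3 and ITGB5 lie above the WT libraries and those of ITGB8 and ITGA2 below them, while COL4A1, COL4A2 and LAMB3 set double-KO apart from the other 3 genotypes.

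ITGB1 stood at 595, 614 and 610.4 CPM in the WT libraries, at 525, 537 and 578 CPM in those of CGN-KO, at 603, 605 and 629.7 CPM in those of CGNL1-KO and at 593, 558 and 543 CPM in those of double-KO. ITGB1, the β1 chain that pairs with most of the alpha chains here, had differences of -0.15 ± 0.05 (adjusted p = 0.063), 0.01 ± 0.05 (adjusted p = 0.91) and -0.10 ± 0.05 (adjusted p = 0.18) in the 3 lines. Its CGN-KO and double-KO libraries lay below the WT libraries without passing the test. ITGB4 stood at 539, 548 and 529.6 CPM in the WT libraries, at 492, 592 and 559.5 CPM in those of CGN-KO, at 587, 628 and 613 CPM in those of CGNL1-KO and at 554, 550.3 and 598 CPM in those of double-KO. ITGB4, the hemidesmosomal β4 chain, had differences of 0.02 ± 0.06 (adjusted p = 0.87), 0.18 ± 0.06 (adjusted p = 0.11) and 0.07 ± 0.06 (adjusted p = 0.44).

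Of the 10 alpha integrin genes, 2 rose and 4 fell in CGN-KO, 2 rose and 1 fell in CGNL1-KO, and 2 rose and 2 fell in double-KO. Among the collagen-binding ones, ITGA2 fell in all 3 lines and ITGA1 rose in CGNL1-KO and double-KO. ITGA2 stood at 104, 96.7 and 87.8 CPM in the WT libraries, at 67.7, 60.7 and 61.8 CPM in those of CGN-KO, at 80.9, 63.1 and 81.8 CPM in those of CGNL1-KO and at 61.8, 71.3 and 66.1 CPM in those of double-KO. No KO library reached the lowest WT library. ITGA2, the α2 chain of epithelial cells, differed by -0.59 ± 0.09 (adjusted p = 0.00024) in CGN-KO, -0.35 ± 0.09 (adjusted p = 0.02) in CGNL1-KO and -0.52 ± 0.09 (adjusted p = 0.00051) in double-KO. The adjusted p for CGNL1-KO was 0.0759 without CGNL1-KO replicate 2, 0.0865 without WT replicate 1 and 0.0690 without WT replicate 2. ITGA1 stood at 6.84, 7.67 and 6.74 CPM in the WT libraries, at 9.99, 8.99 and 9.03 CPM in those of CGN-KO, at 11.6, 7.63 and 10.8 CPM in those of CGNL1-KO and at 13.0, 11.8 and 11.7 CPM in those of double-KO. All CGN-KO and double-KO libraries lay above WT, and 1 CGNL1-KO library, replicate 2, fell within the WT range. ITGA1, the α1 chain, differed by 0.36 ± 0.12 (adjusted p = 0.051) in CGN-KO, 0.43 ± 0.12 (adjusted p = 0.034) in CGNL1-KO and 0.70 ± 0.12 (adjusted p = 0.00047) in double-KO. Leaving out libraries raised the adjusted p for CGNL1-KO to 0.115 without CGNL1-KO replicate 1, 0.137 without CGNL1-KO replicate 3, 0.0911 without WT replicate 1, 0.0507 without WT replicate 2 and 0.110 without WT replicate 3. ITGA1 and ITGA2 were next to each other in gene order among the genes tested, and their differences had opposite signs in every line. ITGA10, the third collagen-binding chain here, ranged from 0.945 to 2.67 CPM and did not pass in any line.

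Of the laminin-binding alpha chains, ITGA3 and ITGA6 fell in CGN-KO, where ITGA7 rose. ITGA6 stood at 117, 119 and 114 CPM in the WT libraries, at 79.4, 83.9 and 94.5 CPM in those of CGN-KO, at 102, 105 and 113 CPM in those of CGNL1-KO and at 106, 100.4 and 101 CPM in those of double-KO. All KO libraries lay below all WT libraries, with CGN-KO the lowest group. ITGA6, the α6 chain, differed by -0.44 ± 0.06 (adjusted p = 0.00011) in CGN-KO, -0.13 ± 0.06 (adjusted p = 0.22) in CGNL1-KO and -0.19 ± 0.06 (adjusted p = 0.037) in double-KO. The double-KO result did not pass in several reduced sets, with adjusted p of 0.112 without double-KO replicate 2, 0.117 without double-KO replicate 3, 0.0834 without WT replicate 1, 0.107 without WT replicate 2 and 0.0526 without WT replicate 3. Within a library the ratio of ITGA6 to ITGB4 CPM ranged from 0.215 to 0.218 in WT libraries, 0.142 to 0.169 in CGN-KO libraries, 0.167 to 0.184 in CGNL1-KO libraries and 0.168 to 0.192 in double-KO libraries.

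ITGA3 stood at 430.4, 479 and 460.4 CPM in the WT libraries, at 348, 420.1 and 409 CPM in those of CGN-KO, at 477, 512 and 517 CPM in those of CGNL1-KO and at 423, 389 and 431 CPM in those of double-KO. The CGN-KO libraries lay below the WT libraries, and those of CGNL1-KO and double-KO overlapped them. ITGA3, the α3 chain of epithelial laminin receptors, differed by -0.22 ± 0.07 (adjusted p = 0.038) in CGN-KO, 0.14 ± 0.07 (adjusted p = 0.28) in CGNL1-KO and -0.14 ± 0.07 (adjusted p = 0.16) in double-KO. The CGN-KO result was lost in several settings, with adjusted p of 0.0522 without the unnumbered double-KO library, 0.0510 with libraries scaled to equal totals, 0.161 without CGN-KO replicate 1, 0.0503 without CGNL1-KO replicate 3, 0.152 without WT replicate 2 and 0.0912 without WT replicate 3.

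ITGA7 rose in each single-KO line and not in double-KO. ITGA7 stood at 3.12, 3.59 and 3.25 CPM in the WT libraries, at 6.26, 5.48 and 5.43 CPM in those of CGN-KO, at 7.26, 5.15 and 6.37 CPM in those of CGNL1-KO and at 2.76, 2.96 and 3.29 CPM in those of double-KO. The 6 single-KO libraries lay above all WT and double-KO libraries, which overlapped each other. ITGA7, the α7 chain best known from muscle, rose by 0.64 ± 0.12 (adjusted p = 0.0012) in CGN-KO and 0.74 ± 0.12 (adjusted p = 0.00064) in CGNL1-KO, and its difference in double-KO was -0.11 ± 0.12 (adjusted p = 0.54). In direct comparison double-KO differed by -0.75 ± 0.12 (adjusted p = 0.0011) from CGN-KO and by -0.85 ± 0.12 (adjusted p = 0.00019) from CGNL1-KO. ITGA7 is a low gene here, and edgeR and DESeq2 put the last difference past 2-fold, at -1.04 and -1.05.

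ITGA5 stood at 4.60, 5.08 and 4.73 CPM in the WT libraries, at 3.49, 3.56 and 2.36 CPM in those of CGN-KO, at 5.75, 3.75 and 4.82 CPM in those of CGNL1-KO and at 4.75, 4.78 and 4.34 CPM in those of double-KO. ITGA5, the fibronectin-binding α5 chain, fell in CGN-KO by 0.50 ± 0.14 (adjusted p = 0.019), where every library lay below WT. Its differences in CGNL1-KO and double-KO were -0.02 ± 0.14 (adjusted p = 0.95) and -0.05 ± 0.14 (adjusted p = 0.84). The adjusted p in CGN-KO became 0.0994 without CGN-KO replicate 3 and 0.0740 without WT replicate 2. In direct limma tests without a replicate block, ITGA5 did not pass between CGN-KO and CGNL1-KO (adjusted p = 0.062) or double-KO (adjusted p = 0.055). ITGA2B and ITGAE, chains best known from platelets and from intraepithelial lymphocytes, were listed at low levels and did not pass in any line.

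Of the 7 laminin genes, 4 rose in CGN-KO, 3 rose in CGNL1-KO, and 3 rose and 1 fell in double-KO. LAMB1 stood at 299, 306 and 284 CPM in the WT libraries, at 337, 353 and 359 CPM in those of CGN-KO, at 372, 373 and 370.0 CPM in those of CGNL1-KO and at 402, 401 and 426 CPM in those of double-KO. Every KO library lay above WT, and the double-KO libraries were the highest. LAMB1, the β1 chain of several laminin trimers, rose by 0.24 ± 0.05 (adjusted p = 0.0027) in CGN-KO, 0.33 ± 0.05 (adjusted p = 0.00035) in CGNL1-KO and 0.47 ± 0.05 (adjusted p = 4.3e-06) in double-KO. LAMC1 stood at 609, 541 and 519.5 CPM in the WT libraries, at 618, 650.0 and 666 CPM in those of CGN-KO, at 589, 560.2 and 576 CPM in those of CGNL1-KO and at 582, 590.1 and 578 CPM in those of double-KO. LAMC1, the γ1 chain that joins it in these trimers, rose in CGN-KO by 0.21 ± 0.06 (adjusted p = 0.019), and its differences were 0.05 ± 0.06 (adjusted p = 0.69) in CGNL1-KO and 0.07 ± 0.06 (adjusted p = 0.41) in double-KO. The CGN-KO result of LAMC1 was lost in reduced sets, with adjusted p of 0.0567 without CGN-KO replicate 2, 0.0769 without CGN-KO replicate 3, 0.0799 without WT replicate 2 and 0.0813 without WT replicate 3. In direct limma tests without a replicate block, LAMC1 did not pass between CGN-KO and CGNL1-KO (adjusted p = 0.15) or double-KO (adjusted p = 0.17). The ratio of LAMB1 to LAMC1 CPM ranged from 0.490 to 0.566 in WT libraries, 0.538 to 0.545 in CGN-KO libraries, 0.632 to 0.665 in CGNL1-KO libraries and 0.680 to 0.736 in double-KO libraries.

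LAMA5 stood at 110.4, 133 and 164 CPM in the WT libraries, at 175, 202 and 169.7 CPM in those of CGN-KO, at 191, 136 and 132 CPM in those of CGNL1-KO and at 173, 201 and 212 CPM in those of double-KO. The CGN-KO and double-KO libraries lay above the WT libraries, which themselves ranged widely, and the CGNL1-KO libraries overlapped WT. LAMA5, a major α chain of kidney tubule basement membrane, rose by 0.44 ± 0.14 (adjusted p = 0.037) in CGN-KO and 0.53 ± 0.14 (adjusted p = 0.0094) in double-KO, and its difference in CGNL1-KO was 0.17 ± 0.14 (adjusted p = 0.53). The adjusted p in CGN-KO became 0.108 with DESeq2 on the recovered reads, 0.136 without CGN-KO replicate 2, 0.0543 without CGN-KO replicate 3, 0.0516 without double-KO replicate 2, 0.161 without WT replicate 1 and 0.0975 without WT replicate 2. That in double-KO became 0.0547 without double-KO replicate 3 and 0.0552 without WT replicate 1.

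Genes near LAMA5 in all 3 lines, and near LAMB1 in double-KO, had median differences from WT of 0.29 or more. For each member up to 12 placed genes on either side in gene order were taken from a RefSeq table of another dog assembly, UU_Cfam_GSD_1.0, which placed 11748 of the 12650 genes and all 40 members. This gave 24 neighbours for 33 members, LAMA5 and LAMB1 included, and 12 to 22 for the other 7. The neighbours of LAMA5 had median differences of 0.39, 0.34 and 0.38 in the 3 lines, beside 0.44, 0.17 and 0.53 for LAMA5 itself. All genes of that chromosome, which also holds MYL9, had medians of 0.19, 0.20 and 0.14. The neighbours of LAMB1 had medians of 0.01, 0.04 and 0.29, beside 0.24, 0.33 and 0.47 for LAMB1 itself, and all genes of its chromosome, which also holds CTNND1, had medians of 0.09, 0.05 and 0.30. For the other 38 members the neighbours' medians lay between -0.15 and 0.15. The part of these neighbourhoods in the laminin values was not tested.

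**Figure D4:**
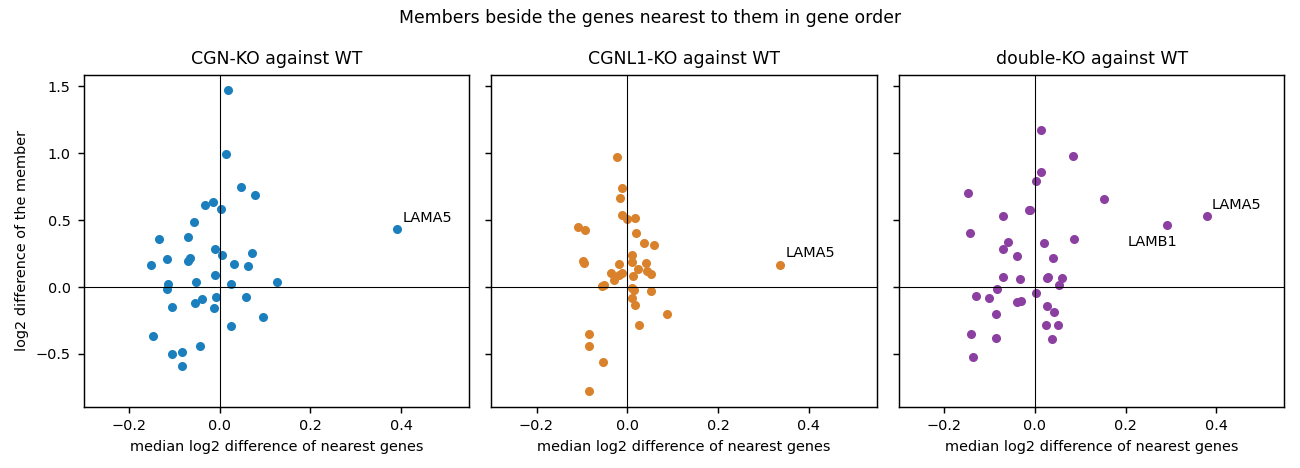
Difference from WT of 39 members (vertical axis) against the median difference of the genes nearest to each in gene order, 24 for most and at least 12, (horizontal axis), both in log2(CPM + 1), for the 3 KO lines. LAMA5 stands apart on the horizontal axis in every line (0.39, 0.34 and 0.38), and LAMB1 does in double-KO (0.29).

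LAMA3 and LAMB3, which give chains of a laminin that anchors epithelia through α3β1 and α6β4, differed in where they passed: LAMB3 fell in double-KO and LAMA3 rose in CGNL1-KO. LAMB3 stood at 333, 313 and 329 CPM in the WT libraries, at 349, 334 and 319.6 CPM in those of CGN-KO, at 376, 295 and 313 CPM in those of CGNL1-KO and at 232, 253 and 263 CPM in those of double-KO. The 3 double-KO libraries lay below all 9 others. LAMB3, the β3 chain, differed from WT by 0.04 ± 0.08 (adjusted p = 0.75), 0.01 ± 0.08 (adjusted p = 0.97) and -0.38 ± 0.08 (adjusted p = 0.0016) in the 3 lines, and double-KO differed by -0.42 ± 0.08 (adjusted p = 0.0027) from CGN-KO and by -0.39 ± 0.08 (adjusted p = 0.0028) from CGNL1-KO.

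LAMA3 stood at 237, 242 and 220.4 CPM in the WT libraries, at 215, 248 and 247 CPM in those of CGN-KO, at 269, 264 and 266 CPM in those of CGNL1-KO and at 223, 218 and 225 CPM in those of double-KO. LAMA3, the α3 chain, rose in CGNL1-KO by 0.19 ± 0.06 (adjusted p = 0.043), and its differences in CGN-KO and double-KO were 0.02 ± 0.06 (adjusted p = 0.84) and -0.07 ± 0.06 (adjusted p = 0.43). The CGNL1-KO result did not hold with most libraries left out, with adjusted p of 0.0618 without the unnumbered double-KO library, 0.105 with libraries scaled to equal totals, 0.0507 without CGN-KO replicate 3, 0.0763 without CGNL1-KO replicate 1, 0.0704 without CGNL1-KO replicate 2, 0.109 without CGNL1-KO replicate 3, 0.0625 without double-KO replicate 2, 0.0594 without double-KO replicate 3, 0.0681 without WT replicate 1, 0.0625 without WT replicate 2 and 0.161 without WT replicate 3. The ratio of LAMB3 to LAMA3 CPM ranged from 1.29 to 1.49 in WT libraries, 1.29 to 1.62 in CGN-KO libraries, 1.12 to 1.40 in CGNL1-KO libraries and 1.04 to 1.17 in double-KO libraries. LAMB2, the β2 chain, lay between 90.2 and 100.2 CPM in the 12 libraries and did not pass in any line.

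**Figure D5:**
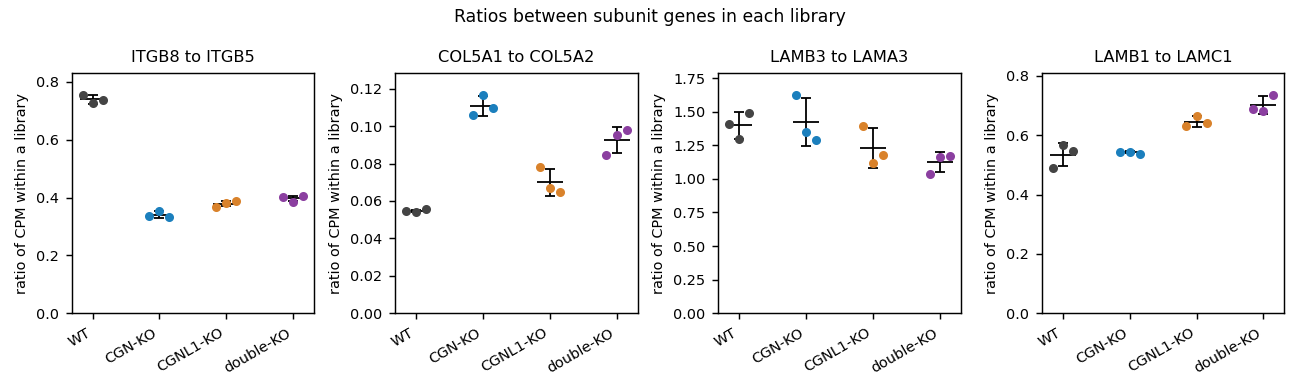
Ratio of the CPM of 2 subunit genes within a library (vertical axis, starting at 0) for 4 pairs, by genotype. Points are libraries, the horizontal marks are means and the error bars are SD (n = 3). ITGB8 to ITGB5 was at least 0.726 in WT and at most 0.404 in the KO lines, and LAMB3 to LAMA3 was at 1.04 to 1.17 in double-KO, below the WT libraries (1.29 to 1.49).

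Of the 17 collagen genes tested, 6 rose in CGN-KO, 3 rose and 2 fell in CGNL1-KO, and 7 rose in double-KO, with median differences of 0.17, 0.17 and 0.23. COL4A1 and COL4A2, the main type IV collagen genes of the basement membrane, were highest in double-KO. COL4A1 stood at 76.0, 89.1 and 82.0 CPM in the WT libraries, at 86.8, 116 and 101 CPM in those of CGN-KO, at 93.8, 105 and 93.5 CPM in those of CGNL1-KO and at 187, 177 and 198 CPM in those of double-KO. The double-KO libraries lay far above all others, and the CGN-KO libraries overlapped WT. COL4A1 rose by 1.18 ± 0.09 (adjusted p = 1.1e-07) in double-KO, or 2.26-fold. Its differences were 0.29 ± 0.09 (adjusted p = 0.031) in CGN-KO and 0.24 ± 0.09 (adjusted p = 0.11) in CGNL1-KO, and the first was lost in reduced sets, with adjusted p of 0.158 without CGN-KO replicate 2, 0.0784 without CGN-KO replicate 3, 0.117 without WT replicate 1 and 0.0754 without WT replicate 3. COL4A2 stood at 74.2, 92.0 and 90.6 CPM in the WT libraries, at 81.6, 97.0 and 94.2 CPM in those of CGN-KO, at 93.7, 103 and 95.5 CPM in those of CGNL1-KO and at 154, 145 and 168 CPM in those of double-KO. COL4A2, which encodes the chain that joins COL4A1 chains in the common type IV trimer, rose by 0.86 ± 0.08 (adjusted p = 2.0e-06) in double-KO and had differences of 0.09 ± 0.08 (adjusted p = 0.51) in CGN-KO and 0.19 ± 0.08 (adjusted p = 0.19) in CGNL1-KO.

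In direct comparison, double-KO lay above CGN-KO by 0.89 ± 0.09 (adjusted p = 1.4e-05) for COL4A1 and 0.77 ± 0.08 (adjusted p = 3.7e-05) for COL4A2. It lay above CGNL1-KO by 0.93 ± 0.09 (adjusted p = 3.7e-06) and 0.67 ± 0.08 (adjusted p = 6.7e-05). COL4A1 and COL4A2 were next to each other in gene order, and the ratio of the first to the second ranged from 0.904 to 1.02 in WT libraries, 1.06 to 1.19 in CGN-KO libraries, 0.979 to 1.02 in CGNL1-KO libraries and 1.18 to 1.22 in double-KO libraries. COL4A5, the other type IV gene listed, ranged from 0.963 to 1.77 CPM and did not pass in any line or between lines. Of the endothelial markers 2 of 5 were listed, KDR and VWF, with sums of 1.47 to 2.04 CPM in WT, 1.39 to 1.78 CPM in CGN-KO, 2.52 to 2.98 CPM in CGNL1-KO and 0.690 to 0.853 CPM in double-KO. KDR differed by -0.61 ± 0.14 (adjusted p = 0.013) between double-KO and CGN-KO and by -1.42 ± 0.14 (adjusted p = 6.0e-06) between double-KO and CGNL1-KO, and from WT by -0.35 ± 0.14 (adjusted p = 0.096), 0.46 ± 0.14 (adjusted p = 0.047) and -0.96 ± 0.14 (adjusted p = 0.00011) in the 3 lines. KDR had 19 to 32 reads in WT libraries and only 2 to 6 in double-KO libraries. VWF, below the filter and not tested, went the other way, with 5 to 8 reads in WT and 10 to 15 in double-KO. Of the leukocyte markers 1 of 6 was listed, CD14, at 7.45 to 9.25 CPM in WT, 8.50 to 11.4 CPM in CGN-KO, 8.77 to 11.5 CPM in CGNL1-KO and 5.92 to 7.02 CPM in double-KO, and double-KO differed by -0.52 ± 0.12 (adjusted p = 0.015) from CGN-KO and by -0.63 ± 0.12 (adjusted p = 0.003) from CGNL1-KO. The part of these markers in the COL4A1 and COL4A2 values was not tested.

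The type V collagen genes COL5A1 and COL5A3 rose in all 3 lines. COL5A3 stood at 4.89, 4.80 and 5.88 CPM in the WT libraries, at 15.4, 17.8 and 15.4 CPM in those of CGN-KO, at 11.4, 10.3 and 11.7 CPM in those of CGNL1-KO and at 10.4, 8.13 and 10.6 CPM in those of double-KO. Every KO library lay above every WT library, and CGN-KO was the highest group. COL5A3 rose by 1.48 ± 0.11 (adjusted p = 1.2e-07) in CGN-KO, or 2.78-fold, by 0.97 ± 0.11 (adjusted p = 2.1e-05) in CGNL1-KO and by 0.79 ± 0.11 (adjusted p = 7.0e-05) in double-KO. Double-KO differed from CGN-KO by -0.69 ± 0.11 (adjusted p = 0.0012). COL5A1 stood at 81.3, 87.9 and 90.8 CPM in the WT libraries, at 150.4, 192 and 181 CPM in those of CGN-KO, at 127, 127 and 119 CPM in those of CGNL1-KO and at 163, 171 and 183 CPM in those of double-KO. The KO libraries again lay above all WT libraries, with CGNL1-KO between WT and the other 2 lines. COL5A1 rose by 0.99 ± 0.08 (adjusted p = 1.7e-07) in CGN-KO, 0.52 ± 0.08 (adjusted p = 0.0003) in CGNL1-KO and 0.98 ± 0.08 (adjusted p = 1.8e-07) in double-KO. CGNL1-KO lay below CGN-KO, by 0.48 ± 0.08 (adjusted p = 0.0012), and below double-KO, by 0.47 ± 0.08 (adjusted p = 0.00076).

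COL5A2 stood at 1491, 1628 and 1637 CPM in the WT libraries, at 1417, 1644 and 1651 CPM in those of CGN-KO, at 1625, 1897 and 1840.1 CPM in those of CGNL1-KO and at 1923, 1788 and 1869 CPM in those of double-KO. COL5A2, the third type V chain gene, rose in double-KO by 0.23 ± 0.08 (adjusted p = 0.039), which was lost in most reduced sets, with adjusted p of 0.124 without the unnumbered double-KO library, 0.0516 without CGNL1-KO replicate 3, 0.0593 without double-KO replicate 2, 0.105 without double-KO replicate 3, 0.146 without WT replicate 1, 0.0633 without WT replicate 2 and 0.0513 without WT replicate 3. Its differences were -0.02 ± 0.08 (adjusted p = 0.92) in CGN-KO and 0.17 ± 0.08 (adjusted p = 0.21) in CGNL1-KO. The ratio of COL5A1 to COL5A2 CPM ranged from 0.0540 to 0.0555 in WT libraries, 0.106 to 0.117 in CGN-KO libraries, 0.0649 to 0.0783 in CGNL1-KO libraries and 0.0848 to 0.0979 in double-KO libraries. Of the fibroblast and mesenchymal markers, PDGFRA had differences of 0.81 ± 0.27 (adjusted p = 0.049), 0.41 ± 0.27 (adjusted p = 0.42) and 0.52 ± 0.27 (adjusted p = 0.18) in the 3 lines. S100A4, the other one tested, had differences of 0.24, 0.02 and -0.34, none past the test. Between double-KO and CGN-KO, S100A4 differed by -0.58, which passed. The sum of the 3 markers listed (PDGFRA, ACTA2 and S100A4) ranged from 72.3 to 105 CPM in WT, 88.3 to 138 CPM in CGN-KO, 73.5 to 114 CPM in CGNL1-KO and 68.7 to 74.9 CPM in double-KO. Most of this sum was S100A4. ACTA2 did not exceed 0.589 CPM in any library. The part of these markers in the collagen values was not tested.

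Among collagens that sit on fibrils or basement membranes, COL18A1, COL21A1 and COL16A1 rose in CGN-KO, and the first and the second also in double-KO. COL18A1 stood at 8.19, 8.22 and 10.6 CPM in the WT libraries, at 16.8, 16.8 and 11.9 CPM in those of CGN-KO, at 13.6, 8.44 and 7.86 CPM in those of CGNL1-KO and at 13.7, 14.6 and 16.0 CPM in those of double-KO. The CGN-KO and double-KO libraries lay above WT. COL18A1, the basement membrane collagen that holds endostatin, rose by 0.69 ± 0.17 (adjusted p = 0.0085) in CGN-KO and 0.66 ± 0.17 (adjusted p = 0.008) in double-KO, and its difference in CGNL1-KO was 0.10 ± 0.17 (adjusted p = 0.78). COL21A1 stood at 2.95, 2.21 and 3.20 CPM in the WT libraries, at 4.02, 4.74 and 4.07 CPM in those of CGN-KO, at 4.24, 3.39 and 4.33 CPM in those of CGNL1-KO and at 4.65, 4.95 and 4.22 CPM in those of double-KO. Each KO library lay above all WT libraries. COL21A1, a fibril-associated collagen, rose by 0.49 ± 0.13 (adjusted p = 0.013) in CGN-KO and 0.57 ± 0.13 (adjusted p = 0.0031) in double-KO, and its difference in CGNL1-KO was 0.40 ± 0.13 (adjusted p = 0.056). The CGN-KO result of COL21A1 had adjusted p of 0.0590 without CGN-KO replicate 2 and 0.0765 without WT replicate 2.

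COL16A1 stood at 0.825, 0.662 and 0.621 CPM in the WT libraries, at 2.04, 1.93 and 1.59 CPM in those of CGN-KO, at 1.34, 1.40 and 0.696 CPM in those of CGNL1-KO and at 1.31, 1.42 and 0.852 CPM in those of double-KO. The CGN-KO libraries were the highest, and the CGNL1-KO libraries overlapped WT. COL16A1, another fibril-associated collagen, rose in CGN-KO by 0.74 ± 0.16 (adjusted p = 0.0032), and its differences were 0.32 ± 0.16 (adjusted p = 0.25) in CGNL1-KO and 0.36 ± 0.16 (adjusted p = 0.11) in double-KO. At such low levels the scale matters, and the difference in CGN-KO was 1.42 with edgeR and with DESeq2 on the recovered reads. In direct limma tests without a replicate block, COL16A1 did not pass between CGN-KO and CGNL1-KO or between CGN-KO and double-KO (adjusted p = 0.15 for each).

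CGNL1-KO differed from WT in 3 low collagen genes that did not pass in the other lines. In direct tests without a replicate block, none of these passed between CGN-KO and CGNL1-KO. COL23A1 and COL28A1 passed between double-KO and CGNL1-KO, and COL27A1 did not. COL23A1 stood at 2.36, 2.93 and 3.73 CPM in the WT libraries, at 4.19, 3.26 and 3.25 CPM in those of CGN-KO, at 5.98, 4.69 and 5.24 CPM in those of CGNL1-KO and at 2.52, 3.13 and 3.86 CPM in those of double-KO. COL23A1, a transmembrane collagen, rose in CGNL1-KO by 0.66 ± 0.15 (adjusted p = 0.0088), with every library above the other 9, and had differences of 0.20 ± 0.15 (adjusted p = 0.4) in CGN-KO and 0.06 ± 0.15 (adjusted p = 0.81) in double-KO. COL27A1 stood at 2.12, 2.87 and 2.72 CPM in the WT libraries, at 2.01, 2.57 and 2.48 CPM in those of CGN-KO, at 1.68, 1.17 and 1.39 CPM in those of CGNL1-KO and at 1.65, 2.05 and 2.11 CPM in those of double-KO. COL27A1, a fibrillar collagen, differed by -0.56 ± 0.13 (adjusted p = 0.012) in CGNL1-KO, where all libraries lay below WT, with adjusted p of 0.0508 without CGNL1-KO replicate 2 and 0.0645 without WT replicate 2. Its differences in CGN-KO and double-KO were -0.09 ± 0.13 (adjusted p = 0.69) and -0.28 ± 0.13 (adjusted p = 0.14), and the double-KO libraries also lay below WT.

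COL28A1 stood at 10.5, 9.05 and 7.02 CPM in the WT libraries, at 9.33, 4.94 and 6.14 CPM in those of CGN-KO, at 7.55, 3.39 and 3.91 CPM in those of CGNL1-KO and at 8.09, 9.61 and 8.36 CPM in those of double-KO. Within WT and within each single-KO line replicate 1 stood above the other 2, and the CGNL1-KO range overlapped WT. COL28A1 differed by -0.78 ± 0.22 (adjusted p = 0.035) in CGNL1-KO, -0.36 ± 0.22 (adjusted p = 0.28) in CGN-KO and -0.01 ± 0.22 (adjusted p = 0.97) in double-KO. The CGNL1-KO result had adjusted p of 0.0540 with edgeR on the recovered reads, 0.0516 without the unnumbered double-KO library, 0.128 without CGNL1-KO replicate 2, 0.138 without CGNL1-KO replicate 3, 0.0527 without double-KO replicate 3, 0.129 without WT replicate 1 and 0.107 without WT replicate 2. COL11A2 stood at 4.66, 4.36 and 5.45 CPM in the WT libraries, at 5.87, 6.07 and 4.61 CPM in those of CGN-KO, at 4.88, 3.29 and 4.12 CPM in those of CGNL1-KO and at 2.66, 4.10 and 3.69 CPM in those of double-KO. COL11A2, a fibrillar collagen of cartilage, passed the F test (adjusted p = 0.042) but no comparison with WT, with differences of 0.16 ± 0.15 (adjusted p = 0.5), -0.20 ± 0.15 (adjusted p = 0.48) and -0.39 ± 0.15 (adjusted p = 0.068) in the 3 lines.

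COL17A1 stood at 1114, 1086 and 1058 CPM in the WT libraries, at 969, 1069 and 1054 CPM in those of CGN-KO, at 1204, 1139.6 and 1139 CPM in those of CGNL1-KO and at 999.6, 1012 and 1061 CPM in those of double-KO. COL17A1, the hemidesmosomal collagen, had differences of -0.08 ± 0.06 (adjusted p = 0.39), 0.10 ± 0.06 (adjusted p = 0.36) and -0.08 ± 0.06 (adjusted p = 0.31) and did not pass against WT in any line. COL7A1, the anchoring fibril collagen on the far side of the basement membrane, ranged from 11.5 to 15.1 CPM over all libraries and did not pass either. The same held for COL9A2, between 5.03 and 7.02 CPM, and COL12A1, between 1.10 and 3.29 CPM. The 4 members below the filter were not tested. COL24A1 ranged from 0.232 to 0.766 CPM (4 to 16 reads), COL8A2 from 0.114 to 0.630 CPM (2 to 19 reads), COL9A1 from 0.174 to 1.02 CPM (3 to 21 reads) and ITGB7 from 0.221 to 0.813 CPM (4 to 14 reads).

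The KO lines were also compared with each other. Between double-KO and CGNL1-KO 12 of 40 members passed, beside 14.4% of all genes, and between double-KO and CGN-KO 8 passed, beside 8.84% of all genes. The latter count was 5 without double-KO replicate 3. Between CGN-KO and CGNL1-KO 4 passed (COL5A1, COL5A3, ITGA3 and ITGA6), beside 5.19% of all genes. Without CGNL1-KO replicate 1 the 4 became 9. With the replicate number as a block over the 9 WT and single-KO libraries, 13 passed, among them the 4, beside 9.55% of all genes. Among the 9 others were COL18A1, COL23A1, COL27A1, COL28A1, ITGA2, ITGA5, ITGB1 and ITGB6. At 2-fold limma called 0 members in each of these 3 comparisons, also at an unadjusted p below 0.05, beside 0.648% of all genes for CGN-KO against CGNL1-KO, 0.356% for double-KO against CGN-KO and 0.696% for double-KO against CGNL1-KO. There edgeR and DESeq2 each called 1 member, ITGA7 between double-KO and CGNL1-KO, and 0 in the other 2 comparisons.

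Genes that work with these chains were read from 6 lists. Of 27 integrin activators and adaptors tested, 4 rose and 3 fell in CGN-KO, 2 rose and 2 fell in CGNL1-KO, and 6 rose and 3 fell in double-KO, with medians of -0.02, -0.01 and -0.02. The shares that passed, 25.9%, 14.8% and 33.3%, were near those of all genes (19%, 10.3% and 26.3%). TLN2 stood at 40.4, 35.1 and 36.6 CPM in the WT libraries, at 19.7, 18.4 and 18.8 CPM in those of CGN-KO, at 20.2, 18.4 and 19.3 CPM in those of CGNL1-KO and at 16.2, 14.7 and 16.2 CPM in those of double-KO. All KO libraries lay below WT. TLN2, a talin, which links integrin tails to actin, differed by -0.94 ± 0.08 (adjusted p = 2.6e-07), -0.92 ± 0.08 (adjusted p = 6.3e-07) and -1.20 ± 0.08 (adjusted p = 1.3e-08) in the 3 lines. Of 5 hemidesmosome and laminin-binding partners, 1 rose in CGN-KO, 1 rose and 1 fell in CGNL1-KO, and 3 rose in double-KO, with medians of 0.11, 0.13 and 0.49 and shares past the test of 20%, 40% and 60%.

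Of 10 other basement membrane genes tested, 6 rose in CGN-KO, 5 rose in CGNL1-KO, and 5 rose and 1 fell in double-KO, with medians of 0.34, 0.28 and 0.34 and shares past the test of 60%, 50% and 60%. SPARC stood at 0.471, 0.938 and 0.765 CPM in the WT libraries, at 1.91, 1.93 and 2.24 CPM in those of CGN-KO, at 2.61, 3.07 and 3.21 CPM in those of CGNL1-KO and at 1.55, 1.42 and 1.58 CPM in those of double-KO. SPARC, a collagen-binding matrix protein that is low here, rose in every line, by 0.82 ± 0.13 (adjusted p = 0.00031), 1.21 ± 0.13 (adjusted p = 1.3e-05) and 0.55 ± 0.13 (adjusted p = 0.0049). Of 9 other matrix ligands of integrins, 4 rose and 2 fell in CGN-KO, 5 rose and 1 fell in CGNL1-KO, and 7 rose and 1 fell in double-KO, with medians of 0.28, 0.21 and 0.30 and shares past the test of 66.7%, 66.7% and 88.9%. TGFBI stood at 34.1, 29.6 and 29.9 CPM in the WT libraries, at 113, 109 and 109.7 CPM in those of CGN-KO, at 47.6, 58.3 and 54.7 CPM in those of CGNL1-KO and at 113, 104 and 107 CPM in those of double-KO. The KO libraries lay above all WT libraries, with CGNL1-KO the lowest of the lines. TGFBI, a secreted ligand of integrins with β1, β3 or β5, rose by 1.80 ± 0.07 (adjusted p = 9.6e-11), 0.76 ± 0.07 (adjusted p = 4.1e-06) and 1.77 ± 0.07 (adjusted p = 1.7e-10). EDIL3 stood at 53.3, 65.7 and 55.9 CPM in the WT libraries, at 23.6, 27.0 and 28.3 CPM in those of CGN-KO, at 40.8, 40.3 and 42.9 CPM in those of CGNL1-KO and at 47.5, 40.6 and 41.8 CPM in those of double-KO. EDIL3, an RGD ligand of αvβ3 and αvβ5, was below WT in every KO library, with differences of -1.12 ± 0.09 (adjusted p = 1.7e-07), -0.48 ± 0.09 (adjusted p = 0.0015) and -0.42 ± 0.09 (adjusted p = 0.0019).

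Of 19 genes of collagen synthesis and crosslinking, 8 rose and 1 fell in CGN-KO, 6 rose in CGNL1-KO, and 9 rose and 2 fell in double-KO, with medians of 0.19, 0.11 and 0.19 and shares past the test of 47.4%, 31.6% and 57.9%. LOXL2 stood at 112, 113 and 113 CPM in the WT libraries, at 208, 232 and 229.6 CPM in those of CGN-KO, at 204, 180.2 and 172 CPM in those of CGNL1-KO and at 225, 228 and 246 CPM in those of double-KO. All KO libraries lay above WT. LOXL2, a lysyl oxidase that crosslinks type IV collagen, rose by 0.98 ± 0.07 (adjusted p = 2.9e-08), 0.71 ± 0.07 (adjusted p = 2.1e-06) and 1.04 ± 0.07 (adjusted p = 1.3e-08) in the 3 lines. Of 3 collagen receptors other than integrins, 2 rose in CGN-KO, 1 rose in CGNL1-KO and 2 rose in double-KO, with medians of 0.39, 0.35 and 0.42 and shares past the test of 66.7%, 33.3% and 66.7%.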

How the data were processed

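Gene expression was measured by RNASeq (stranded TruSeq mRNA libraries, single reads) in 12 libraries of MDCKII cells. Per the submitters' processing notes the reads were aligned with STAR 2.7.0f to CanFam3.1 and counted per gene with HTSeq 0.9.1. The annotation release and the strand setting of the counting are not given in the sources used here. The authors deposited, in 1 table, a normalized signal: counts per 1e+06 reads, CPM, scaled between libraries and not divided by length. Libraries were matched to genotypes by title, and 1 double-KO column carries no number.

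Whole reads were recovered from the steps of the low values. Of the values up to 2000 reads, 100% came out within 0.05 of a read of a whole number. The library factors implied by the table differed from edgeR's TMM factors on those reads by at most 8.55e-09. Depth is given as the recovered reads.

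The 12650 of 13672 genes that exceeded 1 CPM in 3 or more libraries were fitted as log2(CPM + 1) with limma 3.58.1 (lmFit, eBayes with trend) in R 4.3.3, in 1 fit of all 12 libraries with no covariate. P-values were two-sided and adjusted by Benjamini-Hochberg over all genes tested, with a threshold of 0.05 and, for a call, 2-fold. The script was tested on simulated data. Figures were drawn with matplotlib 3.10.9.

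Alternatives were edgeR 4.0.16 (quasi-likelihood test) and DESeq2 1.42.0 on the recovered reads, a pseudocount of 0.25, no filter, equal library totals, leaving out each library in turn, and the replicate number as a block. Deviations from the genotype means correlated between CGN-KO and CGNL1-KO libraries of the same number (0.632, 0.475 and 0.179), so these numbers were taken as pairs from the data, since no label says what a number marks. For the other pairs of genotypes at least 1 correlation was below 0.1.

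Values in every library are given for members past the F test, up to the 20 with the largest difference between 2 genotypes, and for up to 3 members of each class with the highest WT CPM. Values are also given for listed genes called against WT, up to 3 of each list. The members, lists and naming rule were chosen with earlier results of these data known. ITGB6 and LAMA3 fall outside this rule and were chosen after their values were seen. For 1 member, kept in all counts, values are not reported here.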

Additional observations from a re-analysis of the deposited data

Results flagged for a closer look

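Members are listed here whose difference from WT was not the same in 2 KO lines, by the direct test of one line against the other (limma, difference of log2(CPM + 1) ± SE, n = 3 libraries per line). These are 24 results over 3 comparisons of the 40 members, 12 between double-KO and CGNL1-KO, 8 between double-KO and CGN-KO, and 4 between the single-KO lines. The 2 comparisons that involve double-KO share its libraries.

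Double-KO lay above both single-KO lines for 2 of the 3 type IV collagen genes, COL4A1 and COL4A2, while COL4A5 differed by -0.08 ± 0.13 (adjusted p = 0.77) and 0.08 ± 0.13 (adjusted p = 0.75). COL4A1 was higher than in CGN-KO by 0.89 ± 0.09 (adjusted p = 1.4e-05) and than in CGNL1-KO by 0.93 ± 0.09 (adjusted p = 3.7e-06). COL4A2 was higher by 0.77 ± 0.08 (adjusted p = 3.7e-05) and 0.67 ± 0.08 (adjusted p = 6.7e-05) in the same order. Double-KO differed from both, in the same order, for ITGA7 by -0.75 ± 0.12 (adjusted p = 0.0011) and -0.85 ± 0.12 (adjusted p = 0.00019), and for LAMB3 by -0.42 ± 0.08 (adjusted p = 0.0027) and -0.39 ± 0.08 (adjusted p = 0.0028). These 8 results kept their direction and stayed past the threshold under every alternative run.

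Against CGN-KO alone, COL5A3 in double-KO differed by -0.69 ± 0.11 (adjusted p = 0.0012). LAMB1 was higher by 0.23 ± 0.05 (adjusted p = 0.0088), with an adjusted p of 0.0516 without double-KO replicate 3. The genes near LAMB1 had median differences from WT of 0.01 in CGN-KO and 0.29 in double-KO, and their part in this result was not tested. ITGA6 was higher by 0.25 ± 0.06 (adjusted p = 0.019), and the adjusted p became 0.101 without the unnumbered double-KO library, 0.0958 without CGN-KO replicate 1, 0.0582 without CGN-KO replicate 2 and 0.0512 without double-KO replicate 3. COL11A2 differed by -0.55 ± 0.15 (adjusted p = 0.031), with adjusted p of 0.170 without the unnumbered double-KO library, 0.105 without CGN-KO replicate 1, 0.0949 without CGN-KO replicate 2 and 0.0677 without double-KO replicate 3.

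Against CGNL1-KO alone, double-KO was higher for COL5A1 by 0.47 ± 0.08 (adjusted p = 0.00076) and for ITGAV by 0.25 ± 0.05 (adjusted p = 0.0032), and its difference for LAMA3 was -0.26 ± 0.06 (adjusted p = 0.0062). COL23A1 differed by -0.60 ± 0.15 (adjusted p = 0.013), with an adjusted p of 0.0738 without the unnumbered double-KO library. ITGA3 differed by -0.28 ± 0.07 (adjusted p = 0.015), with adjusted p of 0.0721 without CGNL1-KO replicate 3 and 0.0846 without double-KO replicate 2. COL18A1 was higher by 0.56 ± 0.17 (adjusted p = 0.034), but the adjusted p became 0.0658 without the unnumbered double-KO library, 0.0943 without CGNL1-KO replicate 2, 0.177 without CGNL1-KO replicate 3, 0.0873 without double-KO replicate 2 and 0.136 without double-KO replicate 3. COL28A1 was higher by 0.77 ± 0.22 (adjusted p = 0.03), and its adjusted p became 0.0673 without the unnumbered double-KO library, 0.0999 without CGNL1-KO replicate 2, 0.132 without CGNL1-KO replicate 3, 0.109 without double-KO replicate 2 and 0.0811 without double-KO replicate 3. COL17A1 differed by -0.18 ± 0.06 (adjusted p = 0.048), which was not past the threshold in most reduced sets, with adjusted p of 0.150 without the unnumbered double-KO library, 0.125 with libraries scaled to equal totals, 0.0556 with no filter on low values, 0.0537 without CGN-KO replicate 2, 0.0637 without CGN-KO replicate 3, 0.121 without CGNL1-KO replicate 1, 0.0571 without CGNL1-KO replicate 2, 0.0978 without CGNL1-KO replicate 3, 0.143 without double-KO replicate 2, 0.0695 without double-KO replicate 3, 0.0524 without WT replicate 1 and 0.0650 without WT replicate 2.

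CGN-KO differed from CGNL1-KO in 4 members without a replicate block, and in 13, among them the 4, with the replicate number as a block over the 9 WT and single-KO libraries. COL5A1 was higher in CGN-KO by 0.48 ± 0.08 (adjusted p = 0.0012). COL5A3 was higher by 0.50 ± 0.11 (adjusted p = 0.013), with adjusted p of 0.0693 without CGN-KO replicate 2 and 0.0514 without CGNL1-KO replicate 2. ITGA3 differed by -0.36 ± 0.07 (adjusted p = 0.0059). ITGA6 differed by -0.31 ± 0.06 (adjusted p = 0.0072), with an adjusted p of 0.0598 without CGNL1-KO replicate 3.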

How the results depend on the processing

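Of 92 differences of single genes past the threshold, 67 kept direction and threshold under every alternative, and no result reversed. The 92 include the differences from WT of TLN2, SPARC, EDIL3, TGFBI and LOXL2, which are not members and were entered because they were called. All of those kept, so every result that was lost belonged to a member. The 2-fold counts moved with the pseudocount and the tool. The scale log2(CPM + 1) shrinks low genes. COL5A1 was not low and lay at the 2-fold cut in CGN-KO, at 0.994 in the main fit, 1.008 with edgeR and 1.007 at equal library totals. The cause of the changes was not tested. In CGN-KO against WT 1 member was called, and 3 with a pseudocount of 0.25, with edgeR or with DESeq2 (COL16A1, COL5A1 and COL5A3), and 2 at equal library totals. In CGNL1-KO against WT 0 were called, and 1 (COL5A3) with that pseudocount, edgeR or DESeq2. In double-KO against CGNL1-KO 0 were called, and 1 with edgeR or DESeq2 (ITGA7) or with a replicate block over the 11 numbered libraries (COL28A1). Past adjusted p 0.05, CGN-KO against CGNL1-KO gave 4 members, 8 with DESeq2, 7 at equal totals and 13 with the replicate block over the 9 WT and single-KO libraries. The double-KO numbers did not pair with the others (correlations from -0.235 to 0.0859), and 4 single results of double-KO lost the threshold under the block of numbered libraries, with adjusted p of 0.125 for COL5A2 against WT, 0.181 for COL11A2 and 0.0670 for ITGA6 against CGN-KO, and 0.117 for COL17A1 against CGNL1-KO. Over all genes, the calls against WT were 166, 78 and 178 in CGN-KO, CGNL1-KO and double-KO, 265, 132 and 278 with a pseudocount of 0.25, 309, 157 and 328 with edgeR and 305, 157 and 326 with DESeq2. Between KO lines they were 82 for CGN-KO against CGNL1-KO, 45 for double-KO against CGN-KO and 88 for double-KO against CGNL1-KO, and 126, 88 and 159, 146, 118 and 194, or 144, 117 and 199 in the same 3 settings.

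With each library left out in turn, the F test gave 22 to 30 members, CGN-KO against WT 15 to 21 (1 to 2 called), CGNL1-KO against WT 9 to 16 (0 to 1 called) and double-KO against WT 16 to 20 (1 to 2 called). CGN-KO against CGNL1-KO gave 3 to 9, double-KO against CGN-KO 5 to 11 and double-KO against CGNL1-KO 8 to 14 (0 to 1 called). Levels per coding length were not run. Depth limits the low genes: COL16A1 had 12 to 62 reads per library, COL27A1 26 to 61 and SPARC 8 to 68.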
